A study of Mus musculus with 6 samples.

Results

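The carbonic anhydrase genes described here are *Car1*, *Car2*, *Car3*, *Car4*, *Car9*, *Car12* and *Car13*, 7 of the 16 genes named *Car* among the 47729 genes of the expression table. They were taken by symbol and chosen by their LS1 and Control values in these same 6 libraries, so their difference between the lines is described and is not tested. Polyadenylated RNA came from the upper end of the tibia (its growth plate and metaphysis with the articular cartilage and the ossification center above) of 3 random-bred Control mice (strain Control (ICR)) and 3 LS1 mice (strain Longshanks 1), a line in which breeders were picked for long tibiae at a given body mass. All mice were 14 days old. The epiphyses of both legs went into 1 library per mouse, and the mice came from different families of each line. The labels name no altered gene and no treatment in either line. LS1 is a single selected line, so that selection and chance differences between lines cannot be told apart.

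Carbonic anhydrases are zinc enzymes that interconvert carbon dioxide and water with bicarbonate and a proton. In red cells they load and unload carbon dioxide, and in osteoclasts they supply the protons that dissolve bone mineral. The family differs in where its enzymes sit, since *Car1*, *Car2*, *Car3* and *Car13* encode cytosolic enzymes, *Car9* and *Car12* span the cell membrane with the catalytic domain outside, and *Car4* is anchored to the outer face of the membrane.

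*Car13*, *Car1*, *Car3* and *Car2* lie in this order within 259 kb of chromosome 3 (GRCm38, 14641727 to 14900770), with *Car1* on the minus strand and the others on the plus strand. *Car9* lies on chromosome 4 (43506966 to 43513729), *Car12* on chromosome 9 (66713686 to 66766845) and *Car4* on chromosome 11 (84957786 to 84966044). The Ensembl identifiers are ENSMUSG00000027556 for *Car1*, ENSMUSG00000027562 for *Car2*, ENSMUSG00000027559 for *Car3*, ENSMUSG00000000805 for *Car4*, ENSMUSG00000028463 for *Car9*, ENSMUSG00000032373 for *Car12* and ENSMUSG00000027555 for *Car13*. Promoter sequences of RefSeq (GRCm38.p6), each from 250 bases before to 50 bases after a gene start, matched 3 of the 7 genes. *Car9* and *Car12* are shown because *Car9* is a textbook target of hypoxia-inducible factor, whose core binding word is ACGTG, and because both encode membrane enzymes with unlike values here. Capitals mark ACGTG or its reverse complement, the only motif searched, and both sequences run along the plus strand.
*Car9*, chr4:43506776-43507075: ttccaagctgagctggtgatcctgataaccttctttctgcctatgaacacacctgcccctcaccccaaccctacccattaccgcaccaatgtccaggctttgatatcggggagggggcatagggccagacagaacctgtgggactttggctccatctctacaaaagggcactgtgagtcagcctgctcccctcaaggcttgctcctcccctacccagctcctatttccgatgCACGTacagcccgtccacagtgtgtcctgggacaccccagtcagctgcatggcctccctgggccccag
*Car12*, chr9:66713436-66713735: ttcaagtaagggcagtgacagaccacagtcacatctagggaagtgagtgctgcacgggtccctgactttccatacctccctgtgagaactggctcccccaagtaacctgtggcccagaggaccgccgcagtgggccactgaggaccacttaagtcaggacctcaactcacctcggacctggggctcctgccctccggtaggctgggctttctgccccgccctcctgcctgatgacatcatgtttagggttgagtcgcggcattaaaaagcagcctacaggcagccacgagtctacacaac
*Car9* held 1 match, on the minus strand, beginning at base -18 from the start site of its window, and *Car12* held 0. That start site lies downstream of the *Car9* gene start given above (43506966), so the match falls inside the gene as placed there. The word was present in 19.6% of all 32851 windows, and in 13 of the 22 windows (59.1%) of the 14 matched genes of the hypoxia list described further on. *Car4*, the remaining promoter that matched, also held 1.

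Reads counted in genes numbered 68803249 to 76581954 per library in Control and 82227711 to 88745366 in LS1. Cartilage, bone and marrow were all present by their defining genes, with *Col2a1* at 1344212 to 2086285 normalized counts, *Bglap* at 12317 to 57751 and *Hbb-bs* at 596032 to 1319374 over the 6 libraries. A normalized count is the number of reads of a gene divided by the size factor of its library. LS1 replicate 3 stood apart from the other LS1 mice, at -4.29 on the first principal component against 43.7 and 50.1, with Control between -41.5 and -22.1. Without it the log2 difference defined next was -0.19 for *Car1*, -0.42 for *Car3*, 0.28 for *Car12* and 0.13 for *Car13*, and those of *Car2* and *Car9* are given with these genes. Values of a group are given in the order of replicates 1, 2 and 3, and a log2 difference is the mean of log2(normalized count + 1) in LS1 minus that in Control. A gene is named called by a method where its p-value, adjusted for all genes tested, was under 0.05.

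The levels of the family were spread widely. Compared per kb of merged exon, *Car2* was the highest, with 42923 ± 5833 normalized counts per kb in the Control mice and 25559 ± 1119 in the LS1 mice (mean ± SD, n = 3 each). It ranked 46 among the 19236 tested genes with a length. *Car1* followed with 10385 ± 4896 normalized counts per kb in Control against 9113 ± 1294 in LS1 (SD, n = 3 each), and *Car3* with 8450 ± 4117 and 6595 ± 2792 (SD, n = 3 each). These genes thus stood above 98.5% and 98.0% of the genes tested.

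*Car12* reached 856 ± 75.4 normalized counts per kb in Control against 939 ± 242 in LS1 (SD, n = 3 each), above 76.8% of the genes tested. *Car13* had 421 ± 76.0 normalized counts per kb in Control and 458 ± 105 in LS1 (SD, n = 3 each), and *Car9* had 152 ± 52.5 and 256 ± 78.7 (SD, n = 3 each). In this order *Car1* and *Car3* were the only neighbours among the 6 genes that passed the filter whose libraries overlapped within a group, which they did in both groups. *Car4* had 1 to 22 reads in a library and was the only member under the filter of a mean of 20 reads over the libraries.

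**Figure D1:**
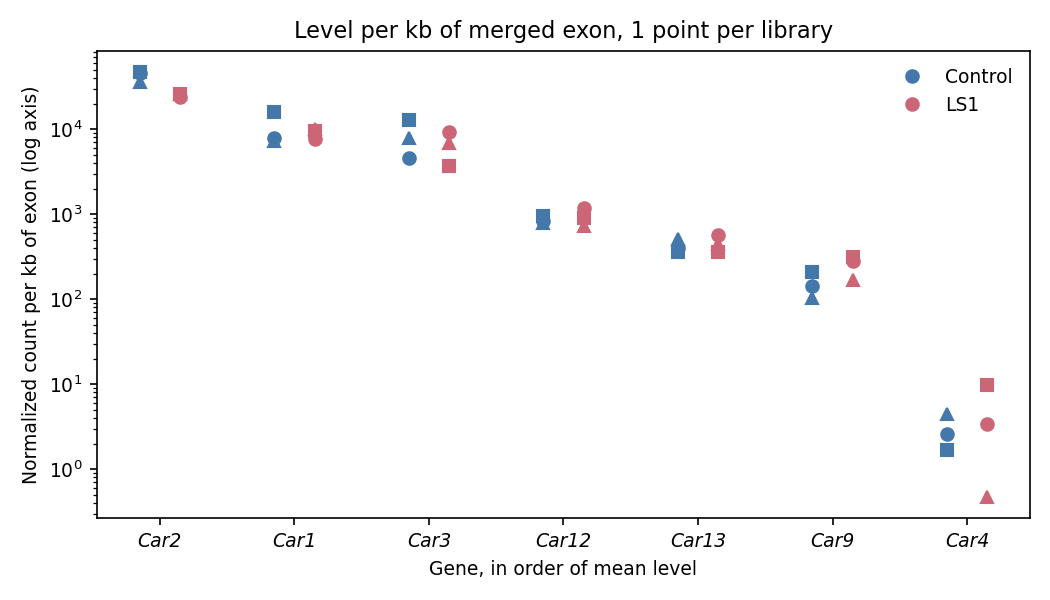
Level of each carbonic anhydrase gene as normalized counts per kb of merged exon (log axis), with genes ordered by their mean and 1 point per library (circle, square and triangle for replicates 1, 2 and 3). *Car2* is the highest in each library, *Car1* and *Car3* overlap, and *Car4* lies far under the rest.

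*Car2* was the only member whose groups did not overlap, and it was lower in LS1. *Car2* encodes the fast cytosolic enzyme of red cells and osteoclasts, and its loss causes osteopetrosis in people. Its normalized counts were 109761, 114261 and 87853 in Control and 58791, 63176 and 63745 in LS1. Every LS1 mouse was below every Control mouse, and the LS1 mice lay close together. In bulk RNA, fewer cells of a type and less RNA per cell cannot be told apart. The means were 103958 ± 14128 (SD, n = 3) and 61904 ± 2711 (SD, n = 3), a log2 difference of -0.74 (standard error 0.14), or 1.67-fold higher in Control. Groups that do not overlap, with LS1 lower, were found in 8.94% of the 19308 genes tested, with LS1 higher in 10.3%, and in either direction in 19.2%.

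The *Car2* difference lay between -0.86 and -0.67 when single libraries were left out, and -0.76 without LS1 replicate 3. *Car2* took 0.113% to 0.150% of all reads in Control and 0.0751% to 0.0818% in LS1. Within LS1 the spread of *Car2* between mice was small, with a SD of 0.064 on the log2 scale that was larger than in 4.83% of the genes tested. Within Control this SD was 0.20.

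Of the 6 members that passed the filter, 0 were called by limma, which called 0.0725% of the 19308 genes tested, and 0 by edgeR (0.0673%) and limma-voom. DESeq2 called 1 (*Car2*, against 2.58% of the genes to which it gave an adjusted p-value), as did limma without LS1 replicate 3 (*Car2*, against 1.68%). Before adjustment, 2 of the 6 were under 0.05 with limma, against 12.9% of the genes tested. Because the members were chosen with this comparison known, these counts are a description. The median log2 difference of the 6 was 0.0022, and that of all genes tested was 0.0054.

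*Car1*, whose enzyme is abundant in red cells, overlapped between the lines. Its normalized counts were 9722, 20008 and 9150 in Control and 9582, 11818 and 12718 in LS1. Control replicate 2 was the highest of all mice and the others overlapped. The log2 difference was -0.10 (standard error 0.28), and it was 0.26 without Control replicate 2 and 0.017 without LS1 replicate 1. On the log2 scale *Car1* spread more between Control mice (SD 0.63) than 91.6% of the genes tested. The pseudogene *Gm5843*, on chromosome 3 between *Car13* and *Car1* (14722416 to 14729626), contains 18.4% of the 35-base words of the *Car1* transcripts, so that reads of the pair can be split. *Gm5843* had 554, 589 and 290 normalized counts in Control and 222, 342 and 377 in LS1, far under *Car1*.

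*Car3* encodes a cytosolic enzyme of low activity that is abundant in skeletal muscle and fat cells. Its normalized counts were 13131, 36609 and 22891 in Control and 26415, 10489 and 19777 in LS1. The groups overlapped, although Control replicate 2 was above every LS1 mouse and LS1 replicate 2 below every Control mouse, and the mice of each line lay far apart. The log2 difference was -0.34 (standard error 0.50), and it was 0.024 without Control replicate 2 and 0.039 without LS1 replicate 2. The SD between mice was 0.74 in Control and 0.68 in LS1 on the log2 scale, larger than in 94.4% and 91.1% of the genes tested.

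*Car13*, the cytosolic member at the other end of the cluster, had 910, 830 and 1165 normalized counts in Control and 1312, 835 and 1013 in LS1. The groups overlapped, and the log2 difference was 0.11 (standard error 0.21), and it was -0.060 without LS1 replicate 1. Over the 4 genes of the cluster the log2 differences ran from -0.74 for *Car2* to 0.11 for *Car13*, and whether they differ between these genes was not tested. Within a library the ratio of *Car2* to *Car1* per kb was 4.57 ± 1.47 in Control against 2.83 ± 0.297 in LS1 (SD, n = 3 each). The ratios of single libraries overlapped, since that of Control replicate 2 was 2.94.

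**Figure D2:**
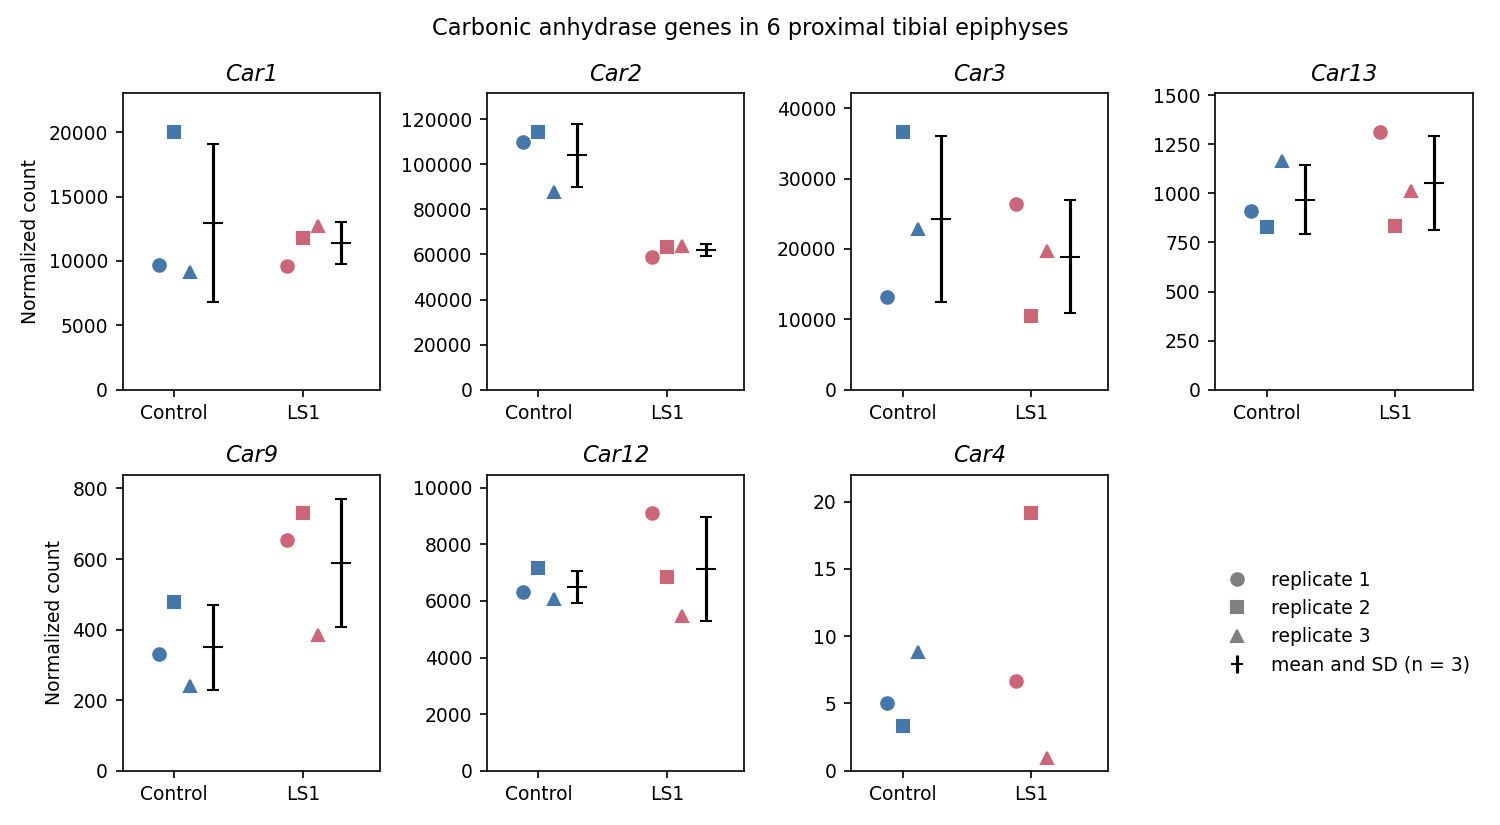
Normalized counts of the 7 genes in each library on linear axes that start at 0, with circles, squares and triangles for replicates 1, 2 and 3 and black bars for the mean and SD of 3 mice. No bar is drawn for *Car4*, which had at most 22 reads. The groups are separate only in *Car2*, where LS1 lies between 58791 and 63745.

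*Car9*, a membrane enzyme that helps cells short of oxygen to shed acid, was higher in LS1 in 2 of 3 mice. Its normalized counts were 332, 479 and 239 in Control and 654, 730 and 385 in LS1. LS1 replicates 1 and 2 were above all Control mice, while LS1 replicate 3 lay among the Control mice. The means were 350 ± 121 (SD, n = 3) and 590 ± 181 (SD, n = 3), a log2 difference of 0.76 (standard error 0.31). This difference was 1.04 without LS1 replicate 3 and 0.51 without Control replicate 3.

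The antisense gene *Gm12454* overlaps the start of *Car9* on the minus strand (chromosome 4, 43504428 to 43508747). Of the 35-base words of *Car9* 6.79% also occur in other genes, foremost this one. Whether the counting used strand is not given in the sources used here, so reads of this stretch cannot be told apart. *Gm12454* had 165, 114 and 75.2 normalized counts in Control and 116, 87.0 and 70.9 in LS1, with its highest value in Control replicate 1.

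*Car12*, the other membrane enzyme, had 6307, 7147 and 6052 normalized counts in Control and 9104, 6848 and 5458 in LS1. LS1 replicate 1 was the highest of all mice and LS1 replicate 3 the lowest. The log2 difference was 0.11 (standard error 0.18), and it was -0.085 without LS1 replicate 1. Per kb, *Car12* was 4.53-fold to 7.68-fold above *Car9* in the Control libraries and 2.84-fold to 4.30-fold above it in the LS1 libraries. *Car4* had 5, 3 and 8 reads in Control and 7, 22 and 1 in LS1, too few for a fold between the lines.

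Of the other 9 *Car* genes, 5 passed the filter, and 0 of these were called by limma, edgeR, limma-voom or DESeq2. With limma 2 were under 0.05 before adjustment, against 12.9% of all genes tested. The groups of 2 did not overlap, with LS1 higher, against 10.3%. *Car8*, which encodes a related protein without the enzyme activity, had 887, 991 and 973 normalized counts in Control and 1203, 1129 and 1668 in LS1. All LS1 mice were above all Control mice, with a log2 difference of 0.47 (standard error 0.19, adjusted p = 0.329 from limma). *Car5b*, a mitochondrial enzyme, had 252, 228 and 150 normalized counts in Control and 349, 271 and 315 in LS1, a log2 difference of 0.59 (limma, adjusted p = 0.366, standard error 0.26).

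The secreted enzyme *Car6* had a log2 difference of 0.70 (adjusted p = 0.497 from limma) at 22.2 to 51.4 normalized counts, and LS1 replicate 2 overlapped Control. *Car7* (0.17) and the inactive relative *Car11* (-0.13) had adjusted p-values of 0.924 and 0.915 from limma. *Car5a*, *Car10*, *Car14* and *Car15* were under the filter. *Car15* had 14.1, 24.4 and 7.74 normalized counts in Control and 0.952, 0.870 and 5.60 in LS1, and 60.7% of its 35-base words are also in the overlapping gene *Gm20518*.

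The genes around the cluster were compared because they share its position. Within 0.5 Mb on either side of the cluster lie 20 other genes of the table, of which 7 passed the filter. Of the 7, 0 were called by limma, edgeR and limma-voom and 2 by DESeq2, against 2.58% of the genes to which it gave an adjusted p-value. With limma 5 were under 0.05 before adjustment, against 12.9% of the genes tested. The groups did not overlap in 4 of the 7, against 19.2% of all genes, and 3 of the 7 were higher in LS1 without overlap, against 10.3%.

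*Gm9733* had 143, 170 and 240.0 normalized counts in Control and 406, 467 and 456 in LS1, which makes a log2 difference of 1.29 (limma, adjusted p = 0.120, standard error 0.25). *Sirpb1a*, an immune receptor gene of the signal regulatory family, had 56.5, 83.1 and 91.8 in Control and 143, 198 and 186 in LS1, a difference of 1.19 (standard error 0.29, adjusted p = 0.194 from limma). *1810022K09Rik* was lower in LS1, with a log2 difference of -0.74 (standard error 0.25, adjusted p = 0.285 from limma). *Gm9733* and *Sirpb1a* were the genes called by DESeq2, and without LS1 replicate 3 limma called *Gm9733*.

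The enzymes work with transporters that carry bicarbonate and protons across membranes. Of 9 genes for bicarbonate transport 8 passed the filter, and of 16 for acid export all 16 did. Of these, 0 were called by limma, edgeR, limma-voom or DESeq2, and 4 were under 0.05 with limma before adjustment, against 12.9% of all genes tested. The groups did not overlap, with LS1 higher, in 2 of the 8 and in 2 of the 16, against 10.3% of all genes tested. The median log2 difference was -0.068 for bicarbonate transport and 0.063 for acid export.

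*Slc4a4* (0.58) and *Slc4a7* (0.53), which encode sodium bicarbonate cotransporters, did not overlap between the groups, with adjusted p-values of 0.277 and 0.311 from limma. *Ostm1* (0.39, adjusted p = 0.264 from limma), the partner of the chloride channel *Clcn7* in osteoclasts, and *Atp6v0d1* (0.12, adjusted p = 0.704 from limma), a subunit of the proton pump, did not overlap either. *Slc4a1*, the chloride and bicarbonate exchanger of red cells, had 179853, 152985 and 128854 normalized counts in Control and 73502, 147988 and 111416 in LS1. Its log2 difference was -0.52 (standard error 0.23, adjusted p = 0.387 from limma), with LS1 replicate 2 among the Control mice.

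Because the libraries mix cell types, lists of marker genes were read beside the members. Over all genes tested, limma called 0.0725%, and 12.9% were under 0.05 with limma before adjustment. DESeq2 called 2.58% of the genes to which it gave an adjusted p-value. The groups did not overlap in 8.94% of the genes tested with LS1 lower and in 10.3% with LS1 higher. All 18 erythroid genes passed the filter and had negative log2 differences, and their median was -0.54 against 0.0054 over all genes tested. *Hba-a2* (-1.42, adjusted p = 0.0291) and *Hbb-bs* (-0.95, adjusted p = 0.0408), which encode globin chains, fell in LS1 by limma, while the other 16 were not called. The other globin genes of the list, *Hba-a1* (-0.81, adjusted p = 0.536 from limma) and *Hbb-bt* (-0.52, adjusted p = 0.468 from limma), overlapped between the groups. Sequence shared between globin genes was not examined. Before adjustment 11 of the 18 were under 0.05 with limma, and in 6 of the 18 the groups did not overlap, with LS1 lower. *Hba-a2* was the only one of the 18 called by edgeR, while limma-voom and DESeq2 each called *Hba-a2* and *Hbb-bs* and no other of the 18. Limma called neither without Control replicate 1, 2 or 3 or without LS1 replicate 2. Without LS1 replicate 1 it called only *Hba-a2*, and without LS1 replicate 3 it called both and *Klf1*. The summed erythroid level was 1910181 to 2464060 normalized counts in Control and 1015821 to 1266825 in LS1.

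*Car2* and the erythroid list were thus both lower in LS1, and both were lowest in LS1 replicate 1. Relative to the Control mean, the median over the erythroid list was -1.01, -0.23 and -0.47 on the log2 scale in LS1 replicates 1, 2 and 3, and *Car2* was at -0.81, -0.71 and -0.70. The members of the list differed in this, since *Hbb-bs* was at -0.94, -0.95 and -0.96 and *Hba-a2* at -1.80, -1.29 and -1.18 in the same mice. Other members overlapped Control, with *Hba-a1* at -1.85, -0.60 and 0.024 and *Rhag* at -0.24, 0.042 and -0.51. *Car1* was at -0.34, -0.036 and 0.070. The part of erythroid RNA in the *Car2* difference was not tested.

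The 14 genes of osteoclasts, another cell type known for *Car2*, had a median log2 difference of 0.015. Of these, 0 were called by limma, edgeR, limma-voom or DESeq2, and 1 (*Ostm1*) was under 0.05 with limma before adjustment. Their summed level was 516506 to 644057 normalized counts in Control and 435732 to 683504 in LS1, with LS1 on both sides of Control. No marker of either list was at 0.

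**Figure D3:**
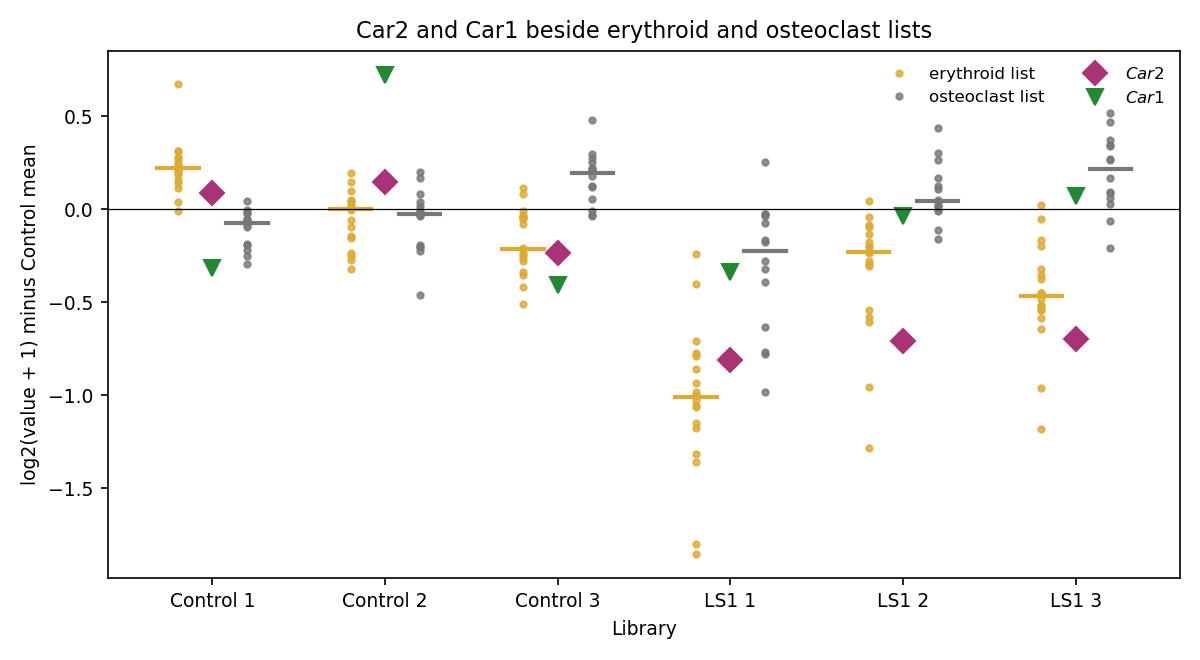
Difference from the Control mean on the log2(normalized count + 1) scale in each library for *Car2* (diamonds), *Car1* (triangles) and the genes of the erythroid and osteoclast lists (points, with bars at their medians). *Car2* lies between -0.81 and -0.70 in the LS1 mice, and the erythroid median between -1.01 and -0.23.

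*Car3* was read beside skeletal muscle and fat, the tissues known for it. Of 18 muscle genes 16 passed the filter, with a median log2 difference of -0.69. Limma, edgeR and limma-voom called 0 of them and DESeq2 called 1 (*Mb*), and 2 were under 0.05 with limma before adjustment. Their summed level was 14080 to 33931 normalized counts in Control and 7233 to 19722 in LS1. Relative to the Control mean, the muscle median was 0.64, -0.10 and -0.48 in Control replicates 1, 2 and 3 and -1.58, -0.012 and -0.35 in LS1 replicates 1, 2 and 3. *Car3* was at -0.76, 0.72 and 0.041 in Control and at 0.25, -1.08 and -0.17 in LS1. It was thus low in Control replicate 1, where muscle genes were highest, and of the LS1 mice it was highest in replicate 1, where they were lowest.

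Of 11 adipocyte genes 10 passed the filter, with a median log2 difference of -0.0064, 0 called by limma, edgeR, limma-voom or DESeq2 and 2 under 0.05 with limma before adjustment. Their summed level was 18311 to 20990 normalized counts in Control and 12995 to 26260 in LS1. Their median relative to Control was 0.089, -0.039 and -0.14 in Control replicates 1, 2 and 3 and -0.11, -0.54 and 0.67 in LS1 replicates 1, 2 and 3. *Car3* and the adipocyte list were both lowest of the LS1 mice in replicate 2, while the list was highest of the Control mice in replicate 1, where *Car3* was lowest. No marker of the muscle and adipocyte lists was at 0 throughout, and their part in the *Car3* values was not tested.

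*Car9* was read beside 15 genes induced by low oxygen. All 15 passed the filter, 13 were higher in LS1 and the median log2 difference was 0.29. Of these, 0 were called by limma, edgeR, limma-voom or DESeq2, and 5 were under 0.05 with limma before adjustment, against 12.9% of all genes tested. In 5 of the 15 the groups did not overlap, with LS1 higher, against 10.3% of all genes tested. The summed level of the 15 was 162150 to 168648 normalized counts in Control and 176591 to 211048 in LS1. *Egln3* (0.65, adjusted p = 0.285), an oxygen-sensing hydroxylase, *Slc2a1* (0.57, adjusted p = 0.230), a glucose transporter, and *Pgk1* (0.46, adjusted p = 0.237), a glycolytic enzyme, had the largest differences from limma among the 5 whose groups did not overlap.

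Relative to the Control mean, the hypoxia median was 0.20, 0.43 and 0.10 in LS1 replicates 1, 2 and 3, and *Car9* was at 0.96, 1.12 and 0.20. Both were highest in LS1 replicate 2 and lowest in LS1 replicate 3. In Control both were highest in replicate 2, but the lowest mouse was replicate 3 for *Car9* and replicate 1 for the list.

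The 15 chondrocyte genes had a median log2 difference of 0.48, with 8 of them higher in LS1 without overlap, against 10.3% of all genes. Limma, edgeR and limma-voom called 0 of them and DESeq2 called 6, against 2.58% of the genes to which it gave an adjusted p-value. Before adjustment 9 were under 0.05 with limma, against 12.9% of the genes tested. The summed level of the 15 was 3271481 to 3815264 normalized counts in Control and 4230383 to 4683492 in LS1. Their median relative to Control was 0.46, 0.57 and 0.47 in LS1 replicates 1, 2 and 3. Of the 15, 13 had positive log2 differences and 2 negative ones. The genes differed in which of LS1 replicates 1 and 3 was higher. *Hapln1* was at 1.39 in LS1 replicate 1 and 0.62 in LS1 replicate 3, and *Ihh*, named after its values were seen, at -0.22 and 0.67. The part of cartilage RNA or of low oxygen in the *Car9* values was not tested.

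**Figure D4:**
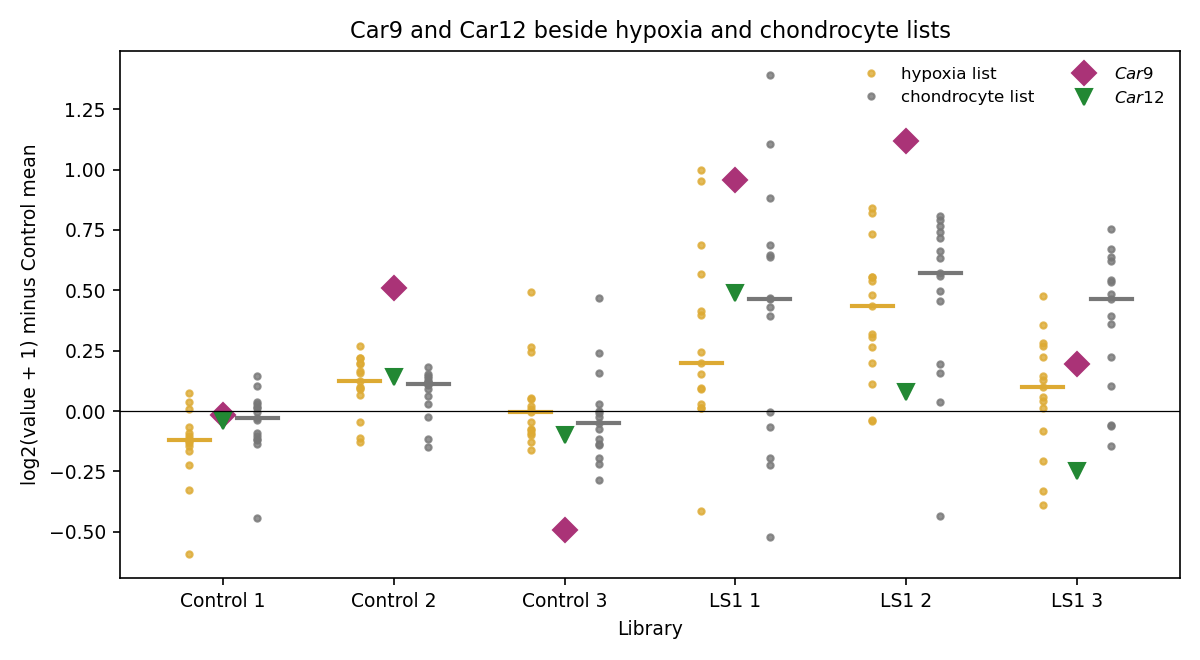
Difference from the Control mean on the log2(normalized count + 1) scale in each library for *Car9* (diamonds), *Car12* (triangles) and the genes of the hypoxia and chondrocyte lists (points, with bars at their medians). *Car9* lies at 0.96 and 1.12 in LS1 replicates 1 and 2 and at 0.20 in LS1 replicate 3, and *Car12* stays between -0.25 and 0.49.

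For the remaining lists the median log2 difference was 0.016 for 13 endothelial genes, 0.17 for 12 neutrophil genes and 0.053 for 9 osteoblast genes. Limma, edgeR and limma-voom called 0 of the genes of each list and DESeq2 called 1 (*Bglap*, an osteoblast gene, lower in LS1 at -0.97). In each list in turn, 1, 2 and 1 genes were under 0.05 with limma before adjustment. The groups did not overlap, with LS1 lower, in 2 of the 9 osteoblast genes, against 8.94% of all genes tested. With LS1 higher this held for 1 endothelial and 1 neutrophil gene, against 10.3%.

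Last, the genes whose values over the 6 libraries were most like those of each member were sought among 14734 other genes with a mean of at least 100 reads (14735 for *Car4*, which is itself under that mean). Likeness was the root mean square difference of log2 values centred on the mean of each gene, over 6 libraries. It rests in part on the difference between the lines, which was known when the members were chosen. For *Car2* the closest were *Siglecg* (0.062), *Slc38a5* (0.075) and *Suox* (0.080), where the median gene was at 0.45. Some genes were looked up after their values were seen. Of these, the erythroid *Hbb-bs* ranked 106 with 0.19, *Slc4a1* 1201 with 0.30 and *Hba-a2* 6173 with 0.42. The osteoclast genes *Acp5* and *Ctsk* ranked 8701 and 9409, and the others looked up ranked between 10662 (*Col2a1*) and 13551 (*Slc2a1*).

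For *Car1* the closest were *Tmem151a* (0.13), *AC157931.1* (0.14) and *Ubxn11* (0.15), and for *Car3* *Grip1* (0.17), *Gm8848* (0.24) and *Adarb2* (0.25). Looked up in the same way, *Slc4a1* ranked 9496, *Hbb-bs* 13415 and *Hba-a2* 14338 for *Car1*. For *Car3* the fat gene *Adipoq* ranked 8202 and the muscle gene *Ckm* 14522. The closest to *Car9* were *Gm5946* (0.12), *Rtl3* (0.15) and *Mapt* (0.16). Of genes looked up after their values were seen, *Slc2a1* ranked 369 with 0.35 and *Col2a1* 2806 with 0.48 for *Car9*. *Slc2a1* was the only gene of the hypoxia list looked up, and the others ranked between 11713 (*Ctsk*) and 14606 (*Hba-a2*). *Car12* was closest to *Plekhg1* (0.033), *Ash1l* (0.034) and *Ago3* (0.043), and *Car13* to *Thsd7a* (0.060), *Retreg1* (0.071) and *Cav2* (0.075). *Car4* was closest to *H2-T22* (0.41), *Mid1* (0.46) and *Abca6* (0.58), a likeness that rests on at most 22 reads of *Car4* in a library. None of the closest genes was another carbonic anhydrase.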

How the data were processed

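Polyadenylated RNA of 6 libraries (3 Control and 3 LS1 mice) was analysed. Per the labels and the methods of the study, the authors mapped paired reads of 35 to 50 bases to GRCm38 (Ensembl release 84) with HISAT2 2.0.2, counted them per gene with featureCounts 1.4.6 and compared them with DESeq2. The deposited values are a signal, namely the count of each gene over the size factor of its library, and hold no columns of the authors' own comparisons. The size factor of each library was inferred from its smallest nonzero value, taken as a single read. Multiplying by this factor gave whole reads in 100% of the values of each library (within 0.001). Median-of-ratios size factors recomputed from these reads were equal to the inferred ones. Total reads per library are given in the report, and depth limits *Car4* most.

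The 19308 genes that averaged 20 or more such reads were fitted with limma 3.58.1 (R 4.3.3) on the log2(value + 1) scale, which understates the change of low genes, using trended, robust moderation. P-values were adjusted by Benjamini-Hochberg with a threshold of 0.05. Tried as alternatives were edgeR 4.0.16, DESeq2 1.42.0 and limma-voom on whole reads, TMM normalization, pseudocounts of 0.5 and 5, filters at 1 and 100 reads, a replicate block, and leaving out each library. The fits were tested on simulated counts. Gene models came from GENCODE M21 (GRCm38), and promoters from RefSeq (GRCm38.p6). The members and gene lists were chosen with earlier results of these data known. Named genes are the members, the other *Car* genes past the filter, the called genes of a list or otherwise up to 3 with the largest difference among those without overlap, and the 3 genes most like each member. Any others were named after their values were seen.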

Additional observations from a re-analysis of the deposited data

How the results depend on the processing

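The log2 differences of *Car2* and *Car9* kept their direction in all 15 alternative fits, and those of *Car1*, *Car3*, *Car12* and *Car13* turned in 1 or 2 of the fits without 1 library, as given with each gene. The number of members called was 0, and 1 with DESeq2. It was 0 to 1 with each library left out. Over all genes 14 were called, against 459 with DESeq2, 9 with the filter of 100 reads and 5 to 324 with each library left out, lowest without Control replicate 2 and highest without LS1 replicate 3. Of the neighbours of the cluster 0 were called, against 2 with DESeq2 and 0 to 1 with each library left out. Of the marker genes 2 were called, against 1 with edgeR, 10 with DESeq2 and 0 to 7 with each library left out. The other *Car* genes and the transport genes had 0 calls in each fit. With the longest transcript in place of merged exons, 2 members changed rank in level per kb, as *Car3* moved above *Car1*. The letters A, B and C that open the sample titles were tried as a replicate block. Deviations of libraries with the same letter correlated at 0.054, 0.021 and 0.22, and those with different letters at -0.147 to 0.116. The labels do not say what the letters mark, and they were not taken to pair the mice. With this replicate block 12 genes were called in all and 1 marker gene (*Hbb-bs*). The cause of these shifts was not tested.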
